A study of Homo sapiens with 12 samples.

Results

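The nuclear genes for subunits of the mitochondrial respiratory chain and ATP synthase were followed in SW13 cells with and without BRG1 and with and without UV, on Affymetrix U133 Plus 2.0 arrays. A gene was a member when the array annotation gave at least 1 probe set that gene alone and its symbol belonged to the NDUFA, NDUFB, NDUFC, NDUFS or NDUFV series, the SDHA to SDHD series, the UQCR or ATP5 families, the COX4 to COX8 subunits with a letter A, B or C, or was CYC1. Where a gene had several such probe sets, the one with the highest mean log2 signal stood for it. The rule uses symbols and mean signal and no difference between groups. This gave 77 of the 19775 genes with such a probe set, of which 75 code for proteins and 2, COX6A1P1 and ATP5MC2P1, are pseudogenes. They comprise 32 genes of complex I, 3 of complex II, 7 of complex III, 16 of complex IV and 19 of complex V. A gene was tested when its signal reached the median of the array on at least 3 of the 12 arrays, which 75 of the 77 members and 13784 of all 19775 genes did. COX7A1 and ATP5MF, which were under the median on all 12 arrays, were not tested.

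SW13 is a human cell line from an adrenal cortical carcinoma, and BRG1, the product of SMARCA4, is the ATPase of SWI/SNF chromatin remodelling complexes. SW13+vector cells carry the empty plasmid pREP7 and SW13+BRG1 cells carry pREP7 with BRG1. Each line was either given UV at a dose of 10 J/m2 or mock treated and was harvested after 6 h, which gave 4 groups of 3 arrays, numbered 1 to 3. They are called the vector line and the BRG1 line here. Each is a single stable line, so p values measure the spread among samples of that line, and BRG1 cannot be told apart from any other difference between the lines.

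The respiratory chain sits in the inner mitochondrial membrane. Complex I takes electrons from NADH and complex II from succinate, complex III passes them from ubiquinol to cytochrome c, and complex IV hands them to oxygen. Complexes I, III and IV pump protons out of the matrix, and complex V, the ATP synthase, uses their return to make ATP. A few core subunits are encoded by mitochondrial DNA and all others by nuclear genes, whose promoters often hold sites for the transcription factors NRF1, GABP (an ETS factor), YY1 and SP1.

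Promoter windows from RefSeq, build GRCh38.p14, with 250 bases before and 50 bases after the start of the gene, were matched by symbol for 64 of the 75 protein-coding members. The letters GCGCANGCG of an NRF1 site, read on both strands, were in 21 of the 64 windows (32.8%), against 8.05% of all 27305 windows and 14% of those of the tested genes. The ETS letters CCGGAAG were in 17 (26.6%, against 10.7% and 18%) and the YY1 letters AAGATGGCG in 7 (10.9%, against 1.85% and 3.65%). The SP1 letters GGGCGG were in 39 (60.9%, against 44.6% and 67.3%). Mitochondrial ribosomal protein genes held the same letters in 19.4%, 41.8%, 17.9% and 59.7% of 67 windows. None of these strings contains another, though matches of different strings may overlap. The windows of 5 members are shown as examples, with NRF1, ETS and YY1 matches in capitals. ATP5MC1, COX5A and NDUFA2, which differed between the lines in both treatments, hold none of these 3 strings. Whether a match goes with a difference was not tested. NDUFA6 (chr22:42090723-42091022, minus strand), which had the largest UV difference of complex I in the vector line, NDUFA7 (chr19:8321326-8321625, minus strand), which had it in the BRG1 line, and NDUFS4 (chr5:53560389-53560688, plus strand), which was higher in the BRG1 line, each hold a YY1 match just after the start, in a window that otherwise has none of the 3 strings in capitals. UQCR11 (chr19:1605413-1605712, minus strand), also higher with the BRG1 label, holds 2 NRF1 and 2 ETS matches. COX6A1 (chr12:120437863-120438162, plus strand), the subunit with the brightest probe set of complex IV, holds 1 of each.
NDUFA6: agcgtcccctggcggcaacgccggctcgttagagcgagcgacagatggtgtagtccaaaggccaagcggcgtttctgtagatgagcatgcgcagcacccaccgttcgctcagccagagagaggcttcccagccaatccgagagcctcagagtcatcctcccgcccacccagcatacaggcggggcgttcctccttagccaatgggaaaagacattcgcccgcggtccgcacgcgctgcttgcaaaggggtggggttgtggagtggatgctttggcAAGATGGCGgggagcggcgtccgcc
NDUFA7: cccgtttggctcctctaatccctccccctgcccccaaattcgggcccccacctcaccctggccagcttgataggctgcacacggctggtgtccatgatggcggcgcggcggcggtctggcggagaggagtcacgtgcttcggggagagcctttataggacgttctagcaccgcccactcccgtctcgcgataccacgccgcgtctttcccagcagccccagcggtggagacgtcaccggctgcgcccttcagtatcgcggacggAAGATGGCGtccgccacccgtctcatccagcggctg
NDUFS4: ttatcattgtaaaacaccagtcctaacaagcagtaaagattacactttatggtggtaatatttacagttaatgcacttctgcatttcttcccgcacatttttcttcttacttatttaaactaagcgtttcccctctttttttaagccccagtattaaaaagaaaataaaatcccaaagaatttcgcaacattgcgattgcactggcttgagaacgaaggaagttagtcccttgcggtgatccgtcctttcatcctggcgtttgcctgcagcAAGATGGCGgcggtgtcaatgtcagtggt
UQCR11: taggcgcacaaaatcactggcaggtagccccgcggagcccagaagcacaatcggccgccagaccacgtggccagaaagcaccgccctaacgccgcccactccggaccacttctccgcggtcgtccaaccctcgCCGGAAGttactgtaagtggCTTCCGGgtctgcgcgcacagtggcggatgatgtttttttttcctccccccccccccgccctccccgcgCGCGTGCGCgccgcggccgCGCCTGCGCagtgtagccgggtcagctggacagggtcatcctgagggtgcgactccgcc
COX6A1: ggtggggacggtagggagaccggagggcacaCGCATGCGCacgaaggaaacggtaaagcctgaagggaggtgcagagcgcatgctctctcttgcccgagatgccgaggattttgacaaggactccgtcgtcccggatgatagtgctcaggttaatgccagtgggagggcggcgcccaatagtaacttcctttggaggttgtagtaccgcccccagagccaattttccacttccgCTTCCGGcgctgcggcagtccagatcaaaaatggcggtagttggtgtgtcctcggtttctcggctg
A match is a run of letters, and binding of a factor was not measured here.

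The values are MAS signals, scaled by the authors so that the trimmed mean of each array is 125, and differences are therefore relative to the rest of the array. Array medians were 21.1 to 25.3. The ratio of 3′ to 5′ signal of ACTB, a sign of RNA quality, was 1.21 to 1.62 on 11 arrays and 2.57 on mock array 3 of the vector line; without the 4 arrays numbered 3 the UV medians of the genes described here were 0.40 and 0.54. Probe sets for SMARCA4 differed in direction between the lines. Its brightest probe set gave signals of 314.1, 382.9 and 920.1 on the mock arrays labelled SW13+vector but only 142.6, 161.0 and 335.6 on the mock arrays labelled SW13+BRG1. The log2 difference of -1.28 (standard error 0.42 and adjusted p = 0.0355) goes against the label. After UV the signals were 423.0, 451.3 and 686.4 against 171.2, 175.9 and 342.7. Another probe set was also lower with the BRG1 label, at log2 differences of -0.77 without UV and -0.78 after UV. Its limma adjusted p values over all tested probe sets were 0.0373 and 0.0313. A different probe set was higher with the BRG1 label after UV (16.9 to 50.4 against 107.5 to 200.7) and overlapped without UV (62.2 to 147.5 against 93.3 to 198.4). No probe set of SMARCA4 passed as higher without UV. Whether the introduced BRG1 cDNA carries their target sequences was not examined. The study checked BRG1 protein in these lines by Western blot, which was not analysed here. The lines are named by their labels throughout. Of 10 adrenal cortex markers 8 were measured and 0 reached the array median on all 12 arrays, so the defining markers of the tissue of origin were absent or near background. Of the 5 measured markers of blood cells 1 did, and of the 5 measured for endothelium and the 5 for muscle 0 did. The summed signal of the blood markers was 143 to 220 on mock arrays of the vector line and 47.2 to 85.9 on those of the BRG1 line. Of the 2 blood markers tested, PTPRC gave a log2 difference of -4.08 between the lines without UV and the other gave -0.13. The summed adrenal signal was 54.3 to 81.5 and 92.2 to 120.3 on the same arrays, and overlapped between the lines after UV. The part of these sums in the differences between the lines was not tested.

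After UV the respiratory chain genes were higher as a group in both lines, by about 1.3 to 1.5 times at the deposited scaling, and their median was above 0 under the 4 other scalings too. On the log2 scale the median difference of the 75 tested members, UV against mock, was 0.41 in the vector line and 0.55 in the BRG1 line, beside 0.03 and 0.03 over all 13784 tested genes. The limma test at an adjusted p under 0.05, with no limit on the fold, passed 37 members as higher in the vector line and 60 in the BRG1 line, where 5.56% and 8.03% of all tested genes passed as higher. As lower it passed 0 members in either line, against 8.48% and 11.8% of all tested genes, and at an unadjusted p under 0.05 it was again 0 lower, with 64 and 65 higher. Arrays with the same number carry the same experiment number in their labels, and with that number as a block 66 and 69 members rose and 0 fell, where 13.6% and 15.4% of all tested genes rose and 14.1% and 16.9% fell. Counts and calls that follow are without the block unless it is named. The shares of all tested genes given here are those to set beside the UV counts of single complexes and other lists below. In what follows a gene is said to rise or fall, or to be higher or lower by the test, where it passed at this level. In bulk RNA, fewer cells of a type and less RNA per cell cannot be told apart. The changes were small: with a fold over 2 required as well, limma called 0 members in either line (0.66% of all tested genes higher and 4.16% lower in the vector line, 0.609% higher and 6.57% lower in the BRG1 line), and the Welch test called 0 with adjusted p values and 0 and 1, COX8C, without adjustment. COX8C reached the array median only on UV arrays, so it was tested only through its UV signals.

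On individual arrays of the vector line the median signal of the members was 2591, 2704 and 3040 for mock and 3785, 3425 and 4199 for UV. On those of the BRG1 line it was 2487, 2586 and 2845 for mock and 3501, 3804 and 4228 for UV. Each UV array of a line was above each mock array of that line. The same held gene by gene for 59 of the 75 members in the vector line and for 62 in the BRG1 line, where 15% and 17.3% of all tested genes had UV arrays that were all above the mock arrays. Of the 37 members that rose in the vector line, 36 also rose in the BRG1 line (97.3% of the first list and 60% of the second). The remaining one was NDUFV3, which with the block rose in the BRG1 line too (adjusted p = 0.0420).

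**Figure D1:**
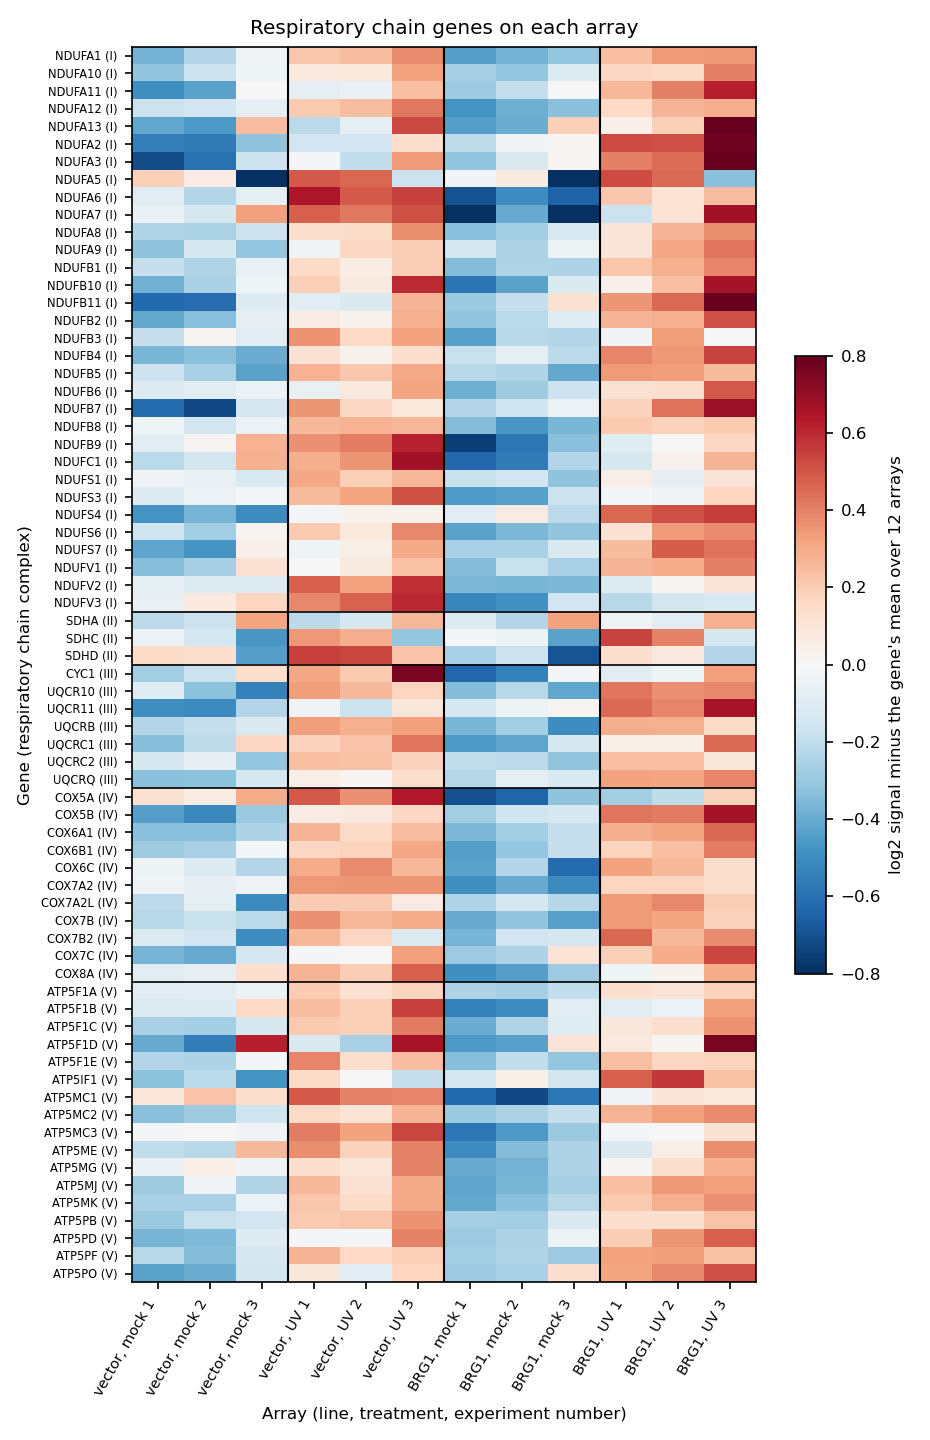
Signals of the 70 tested respiratory chain genes with a mean log2 signal of at least 8 (rows, grouped by complex I to V) on the 12 arrays (columns, 3 per group), each as the log2 signal minus the mean of the gene over all arrays at the deposited scaling. The UV columns of both lines are redder than the mock columns for nearly all rows, SDHA being an exception, and rows such as COX5A, ATP5MC1 and NDUFS4 also differ between the lines.

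The size of the UV difference depended on how the arrays were scaled, while the sign of its median in both lines was the same under the 4 other scalings run. With quantile normalization the medians were 0.18 and 0.225, and 6 and 12 members rose (3.39% and 5.38% of all tested genes). With arrays scaled to a common median they were 0.39 and 0.60, and 13 and 43 rose (2.39% and 6.04% of all tested genes). Scaled to the 18 hybridization control probe sets, which are spiked in at hybridization, they were 0.15 and 0.16, and 1 member rose in each line. Of all tested genes 0.486% and 0.443% rose there, and 14.4% and 23% fell. That scaling put the median of all tested genes at -0.23 and -0.36. Relative to it the members stood at 0.38 and 0.52, the same as at the deposited scaling. Scaling each array by a single factor cannot change this distance, so the equal values carry no information. With quantile normalization, which can change it, the distance was 0.12 and 0.13. The mean log2 signal of those controls was 9.97 to 10.3 on the 6 mock arrays and 10.3 to 10.5 on the 6 UV arrays, and its part in the UV difference was not tested. Scaled to the genes of cytosolic ribosomal proteins the medians were 0.10 and 0.10, with 1 and 3 members risen. Of all tested genes 0.45% and 0.399% rose with it, and 16.1% and 25.7% fell. Under each of the 4 scalings 0 members fell in either line.

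The UV difference was larger for genes with bright probe sets, and most members have one. Among genes with a mean log2 signal of 12 and over, the 210 tested genes that are not members had median differences of 0.33 and 0.44 in the 2 lines, and 53.3% and 81.9% rose. The 21 members at that level had medians of 0.41 and 0.575, and 71.4% and 95.2% rose. Between 9 and 10 the medians were 0.115 and 0.135 for 1351 other genes and 0.38 and 0.56 for 10 members. The median of the members was above the median of the other genes in each of the 7 classes of signal and in both lines. The gap was narrowest among the brightest. Single members lay below the other genes' median, for example at -0.006 between 9 and 10 in the vector line. The class under 6 holds 4 members, from -0.55 to 2.07 in the vector line. The classes from 6 to 8 and from 8 to 9 hold 1 member each. No test was made of this gap.

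**Figure D2:**
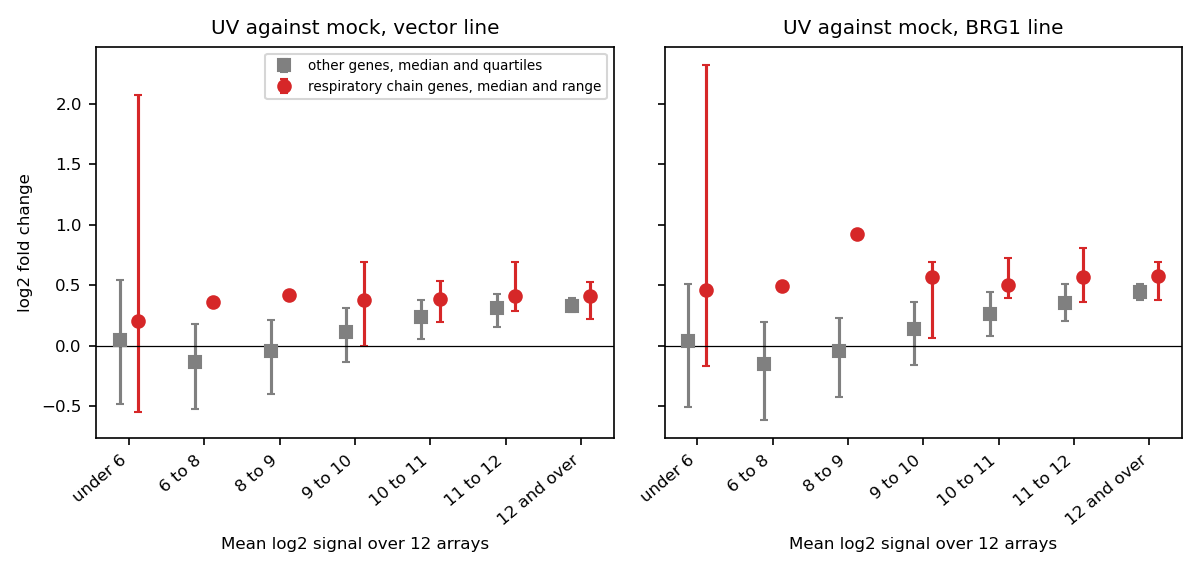
Log2 fold change of UV against mock (vertical) in 7 classes of mean log2 signal over the 12 arrays (horizontal), for SW13+vector (left) and SW13+BRG1 (right), at the deposited scaling. Grey squares give the median and quartiles of other tested genes and red circles the median and range of the respiratory chain genes. The circles lie above the squares in every class and come closest to them at 12 and over. The class under 6 holds 4 members and the classes 6 to 8 and 8 to 9 hold 1 each.

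Complex I, the entry point for NADH, had 32 tested genes, of which 16 rose after UV in the vector line and 28 in the BRG1 line, with median log2 differences of 0.42 and 0.58 (30 and 32 rose with the block). NDUFA6, an accessory subunit, gave mock signals of 2300, 2073 and 2309 and UV signals of 3820, 3425 and 3564 in the vector line. Its groups did not overlap, and the log2 fold change was 0.69 (standard error 0.09, adjusted p = 0.000485). In the BRG1 line it went from 1504, 1725 and 1562 to 2832, 2639 and 2898, a log2 fold change of 0.81 (standard error 0.09, adjusted p = 7.92e-05). NDUFA7, another accessory subunit, had the largest UV difference of complex I in the BRG1 line. Its signals were 225.4, 330.0 and 251.6 without UV and 387.4, 472.0 and 694.9 with UV, and the third UV array stood well above the other UV arrays. The log2 fold change was 0.92 (standard error 0.21, adjusted p = 0.00769), while in the vector line it was 0.42 and did not pass (adjusted p = 0.219). It is the member that came closest to the limit of 2-fold, and with quantile normalization, without mock array 2 or without UV array 1 of the BRG1 line it was called at that limit.

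The catalytic core of complex I was represented by NDUFV1, which binds NADH, by NDUFV2, NDUFS1 and NDUFS7, which carry iron-sulfur clusters, and by NDUFS3. NDUFV2 went from 855.1, 835.0 and 840.2 to 1259, 1127 and 1352 in the vector line and from 703.4, 699.4 and 702.9 to 835.6, 910.0 and 967.5 in the BRG1 line. Its groups did not overlap, and it rose in both (0.56 and 0.36, adjusted p = 0.00356 and 0.0252). NDUFS3 went from 1582, 1645 and 1684 to 2022, 2113 and 2411 and from 1240, 1257 and 1510 to 1676, 1666 and 1912, again without overlap, and rose in both (0.41 and 0.39, adjusted p = 0.0242 and 0.0220). NDUFS7 rose in the BRG1 line (0.605, adjusted p = 0.0119) and did not pass in the vector line (0.39, adjusted p = 0.105, or 0.0108 with the block). NDUFV1 gave 1236, 1304 and 1697 without and 1574, 1651 and 1845 with UV in the vector line, groups that overlapped, and 1231, 1387 and 1309 against 1894, 1923 and 2075 in the BRG1 line, groups that did not. It rose in the BRG1 line (0.59, adjusted p = 0.00445) and did not pass in the vector line (0.27, adjusted p = 0.173). NDUFS1 did not overlap between UV and mock in either line, yet its log2 fold changes of 0.32 and 0.25 did not pass (adjusted p = 0.0518 and 0.114). With the block NDUFV1 in the vector line (adjusted p = 0.0266) and NDUFS1 in both lines (0.00907 and 0.0319) passed as well. NDUFA1, the member of complex I with the brightest probe set, rose from 4485 ± 556 to 6304 ± 380 and from 3994 ± 175 to 6414 ± 256 (mean signal ± SD over the 3 arrays of each group). NDUFB7 rose by 0.69 in the vector line and 0.58 in the BRG1 line.

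Complex II, succinate dehydrogenase, had 3 tested genes with medians of 0.33 and 0.36, of which the second turned to -0.03 with the hybridization controls and to -0.09 with the ribosomal protein genes. By limma 0 of the 3 rose in either line, and 1, SDHD in the vector line, had an unadjusted p under 0.05, while the adjusted Welch test passed 0 of all members in that line. SDHA, the flavoprotein that oxidizes succinate, had signals of 705.5, 721.8 and 1014 without UV and 704.3, 741.0 and 977.8 with UV in the vector line, and of 756.9, 693.2 and 1019 against 795.5, 767.8 and 992.7 in the BRG1 line. The groups overlapped throughout, array 3 was the highest of each, and the log2 fold changes were -0.01 (95% interval -0.42 to 0.41) and 0.06 (-0.35 to 0.47). The sign of these values changed with the scaling and with single arrays. The SDHA probe set is of a type that may also bind near-identical transcripts. SDHC and SDHD, the membrane anchors, had log2 fold changes of 0.33 and 0.49 in the vector line and 0.43 and 0.36 in the BRG1 line, none of which passed (adjusted p = 0.354, 0.0912, 0.182 and 0.191). With the block SDHC and SDHD rose in both lines (adjusted p = 0.00652 and 0.000242 in the vector line, 0.000779 and 0.00118 in the BRG1 line). SDHD was lowest on array 3 of each group, for example at 1537 beside 2308 and 2286 on the mock arrays of the vector line.

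Complex III, the cytochrome bc1 complex, had 5 and 6 of 7 tested genes risen, with medians of 0.41 and 0.52. UQCR10, a small accessory subunit, went from 3490, 2980 and 2570 to 4716, 4472 and 4199 in the vector line and from 2934, 3204 and 2803 to 5017, 4805 and 4870 in the BRG1 line. All UV arrays lay above all mock arrays, and the log2 fold changes were 0.58 (standard error 0.11, adjusted p = 0.00371) and 0.72 (standard error 0.11, adjusted p = 0.000515). UQCRB, which helps bind ubiquinone, rose by 0.50 and 0.62. Of the core subunits, UQCRC1 rose in the BRG1 line (0.52, adjusted p = 0.0315) and not in the vector line (0.41, adjusted p = 0.103). CYC1, the cytochrome c1 that passes electrons on, gave 0.53 and 0.46 and passed in neither (adjusted p = 0.0818 and 0.110). With the block all 7 genes rose in both lines, among them UQCRC1 (adjusted p = 0.000718 in the vector line) and CYC1 (0.00012 and 0.000159).

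Complex IV, cytochrome c oxidase, had 7 and 11 of 15 tested genes risen, with medians of 0.40 and 0.59. COX6A1, the ubiquitous form of a regulatory subunit, went from 5354, 5366 and 5695 to 8160, 7517 and 8015 in the vector line and from 5266, 5595 and 5959 to 8266, 8402 and 9280 in the BRG1 line. The UV arrays again lay above the mock arrays, with differences of 0.53 and 0.625 on the log2 scale (standard error 0.08 in each, adjusted p = 0.00107 and 0.000181). COX5B and COX7B rose in both lines, by 0.52 and 0.69 and by 0.51 and 0.66. COX5A, which with COX5B lies around the catalytic core, rose in the BRG1 line (0.45, adjusted p = 0.0318) and did not pass in the vector line (0.34, adjusted p = 0.122). With the block 11 genes of complex IV rose in each line, COX5A among them (adjusted p = 0.00154 in the vector line).

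Several subunits of complex IV exist as tissue-specific forms, of which 5 were measured. The heart and muscle form COX7A1 had signals of 1.70 to 8.23 over the 12 arrays, under the array median on each, and COX6A2, the muscle form of subunit 6A, had 8.91 to 56.4 and reached the median on 7 of 12 arrays. COX6B2 and COX8C, forms known from testis, reached it on 3 and on 4 arrays. COX7B2, also known from testis, had signals of 488 to 950, above the median on 12 of 12 arrays. It rose after UV in the BRG1 line (0.59, adjusted p = 0.0101) and passed in the vector line (0.36, adjusted p = 0.109) only with the block (0.0361). COX8C had the largest UV log2 fold changes of all members, 2.07 and 2.32, but on signals of 14.3, 1.72 and 5.31 against 15.3, 16.5 and 38.2 in the vector line and 10.1, 12.6 and 1.82 against 29.3, 42.5 and 23.3 in the BRG1 line. Most of these are at or below the array median, the standard error was 0.93, and neither difference passed (adjusted p = 0.169 and 0.103). The 4 arrays on which COX8C reached the median were all UV arrays. It therefore entered the test only through its UV signals, and its UV difference is no support for a rise. The pseudogene COX6A1P1 was dim, at 1.96 to 31.5, and passed in no comparison.

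Complex V, the ATP synthase, had 9 and 15 of 18 tested genes risen, with medians of 0.39 and 0.50. ATP5F1A, the alpha subunit of the catalytic head, had the smallest changes among the members that rose in both lines in its complex, from 8851, 8878 and 9155 to 10870, 10280 and 10690 and from 7951, 7838 and 8221 to 10340, 10120 and 10710. These groups were tight and did not overlap, and the log2 fold changes were 0.24 and 0.38 (standard error 0.065 in each, adjusted p = 0.0255 and 0.00144). Their sign changed in 3 and 4 of the 27 alternative settings run. ATP5F1B, the beta subunit that holds the catalytic sites, gave 0.35 and 0.44 and passed in neither line (adjusted p = 0.149 and 0.0554). ATP5F1C, the gamma subunit of the central stalk, rose by 0.49 and 0.44. ATP5MC1, one of the genes for the c ring through which protons return, rose by 0.70 in the BRG1 line (adjusted p = 0.000348) and did not pass in the vector line (0.27, adjusted p = 0.0854). With the block 16 and 17 of the 18 rose, with ATP5F1B in both lines (adjusted p = 0.000393 and 3.9e-05) and ATP5MC1 in the vector line (0.0207) among them.

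Whether UV acted differently in the 2 lines was fitted as an interaction, which passed for 0 of the 75 members in limma (0.0943% of all tested genes passed), and for 0 with the block. At an unadjusted p under 0.05 it was above 0 for 4 of the 75 members, ATP5MC1, COX7A2, NDUFB1 and NDUFB8, and below 0 for 0. Of all 13784 tested genes 755 passed at that level, 238 above 0 and 517 below. Counted in either direction, the share of the members is close to that of all genes, so these 4 do not stand out. No other tool was run on the interaction. For ATP5MC1 it was 0.43 (95% interval 0.13 to 0.72, adjusted p = 0.618) and for NDUFA7 0.50 (-0.14 to 1.14, adjusted p = 0.989). The median over the members was 0.135, with 66 of 75 above 0, and it moved to 0.035 with quantile normalization, to 0.004 with the hybridization controls and to -0.006 with the ribosomal protein genes.

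**Figure D3:**
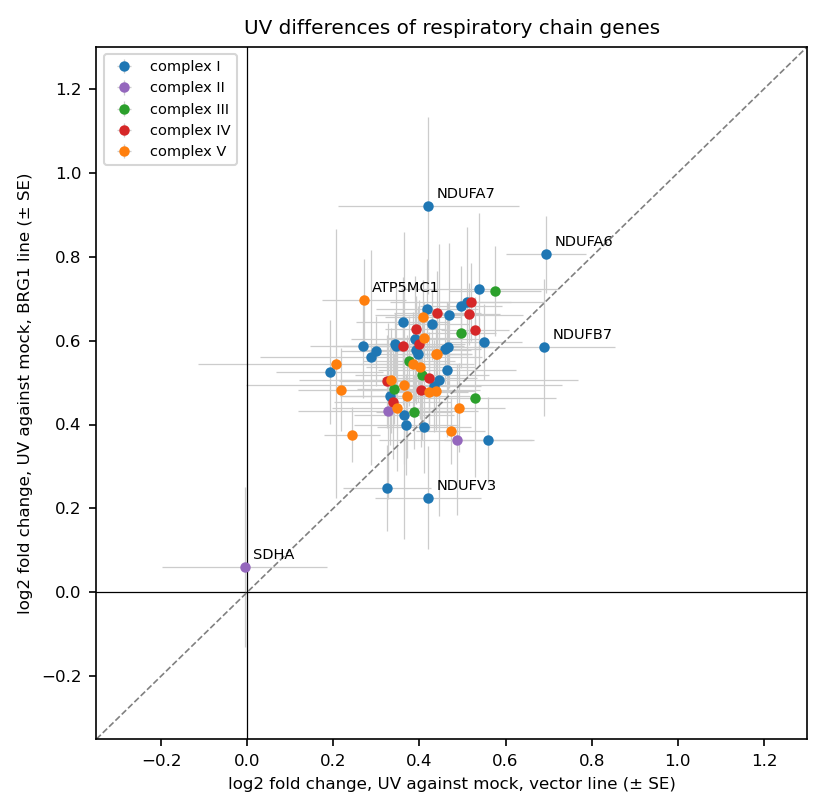
Log2 fold change of UV against mock in SW13+vector (horizontal) and SW13+BRG1 (vertical) for the 71 tested respiratory chain genes with a mean log2 signal of at least 6, coloured by complex, with standard errors and the line of equality (dashed). At the deposited scaling all but SDHA lie right of and above 0, and more lie above the dashed line than below it, although the difference between the lines passed for 0 members.

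Between the lines single respiratory chain genes differed, in both directions. Except for lower members without UV, their shares were below those of all tested genes in the fit without the block. Without UV, 3 of 75 members (4%) were higher and 13 (17.3%) lower on the arrays labelled SW13+BRG1. Of all tested genes 15.3% were higher and 13.2% lower there. The median log2 difference of the members was -0.10, beside 0.00 over all genes. After UV 9 members (12%) were higher and 8 (10.7%) lower, beside 16.4% and 15.5% of all tested genes, with a median of 0.06 beside -0.02. With the fold limit 0 members were called in either comparison (9.38% of all tested genes higher and 5.27% lower without UV, 9.85% and 6.86% after UV), while at an unadjusted p under 0.05 there were 5 and 11 higher and 20 and 12 lower, and the Welch test called 0. With the block 10 members were higher and 28 lower without UV (20.9% and 19.6% of all tested genes), and 19 higher and 15 lower after UV (22.2% and 21.9%). Among the genes named above, 3 were lower in both treatments only with the block, namely ATP5F1B (adjusted p = 0.000122 and 0.00116), CYC1 (0.00336 and 0.000703) and SDHD (0.0021 and 0.000156). The split of higher against lower members moved with the scaling. Without UV it was 8 and 13 with quantile normalization, 0 and 10 with a common median, 2 and 11 with the hybridization controls and 5 and 14 with the ribosomal protein genes. Over all tested genes the same split was 14.8% and 14%, 13.2% and 13.1%, 13.8% and 12.1%, and 14.7% and 11.4%. After UV it was 10 and 11, 4 and 5, 2 and 12, and 7 and 15 members. Over all tested genes it was then 16% and 15.6%, 15.5% and 13.7%, 12.5% and 19.3%, and 13.1% and 18.2%. Single arrays mattered too. Without UV there were 0 higher members without mock array 1 of the vector line or mock array 2 of the BRG1 line, 1 without mock array 2 of the vector line or mock array 3 of the BRG1 line, 7 higher without mock array 3 of the vector line, and 7 lower without mock array 1 of the BRG1 line. After UV there were 5 higher without UV array 2 of the BRG1 line.

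Of the members that differed, 9 did so in both treatments, which share no arrays. The share of all tested genes that passed in both treatments was not counted, so the 9 cannot be set against it. Lower by the test in both were ATP5MC1, ATP5MC3, COX5A, NDUFA6, NDUFB9 and NDUFV3, 6 genes that make up 46.2% of the list without UV and 75% of that after UV. Higher in both were NDUFA2, NDUFS4 and UQCR11, 100% and 33.3% of the lists. As a description, the log2 differences of the 75 members without and with UV correlated with r = 0.91 and rho = 0.92, beside r = 0.85 over all tested genes. The points share lines, array design and signal level.

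COX5A gave 5086, 4866 and 5751 on the mock arrays of the vector line and 2872, 2996 and 3733 on the mock arrays of the BRG1 line, and 6564, 6011 and 7281 against 3846, 4051 and 5305 after UV. The lines did not overlap in either treatment, and the log2 fold changes were -0.72 and -0.60 (standard error 0.14 in each, adjusted p = 0.00138 and 0.00415). A dimmer probe set of COX5A showed more, from 170.3 ± 5.48 to 60.2 ± 13.9 without UV, a log2 fold change of -1.53 (adjusted p = 0.000388 over all tested probe sets), so that COX5A passed the limit of 2-fold where the mean over its probe sets, or probe sets with neither of the suffixes x and s, were used. ATP5MC1 gave 939.2, 1029 and 970.1 against 571.9, 533.1 and 587.5 without UV, where it was the member with the smallest adjusted p, at a log2 difference of -0.80 (standard error 0.10, adjusted p = 4.34e-05). After UV its difference was -0.37 (adjusted p = 0.0106). Without UV it was lower by the test under each alternative in which it was measured. ATP5MC3, a second gene for the same c subunit, was lower by 0.43 and 0.39 on the log2 scale, while ATP5MC2, the third, gave 0.02 and 0.145 and did not pass, although with the block the second difference did (adjusted p = 0.0284).

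In complex I, NDUFB9 was lower in both treatments (-0.63 and -0.44) and so was NDUFA6 (-0.48 and -0.37). NDUFA7 gave 420.0, 399.6 and 549.6 against 225.4, 330.0 and 251.6 without UV. It was lower there (-0.77, adjusted p = 0.0144) but not by the test after UV (-0.27, adjusted p = 0.376), and without mock array 3 of the vector line or mock array 1 of the BRG1 line its first difference did not pass either. NDUFV3, next to the NADH site, was lower by its brightest probe set (-0.45 and -0.65), while its other tested probe set gave 0.45 and 0.62, so the direction of this gene is not settled. NDUFV2, a core subunit with an iron-sulfur cluster, gave -0.265 without UV, which did not pass (adjusted p = 0.0744, or 0.0177 with the block), and was lower after UV (-0.46, adjusted p = 0.00384).

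NDUFA2, NDUFS4 and UQCR11 were higher with the BRG1 label. NDUFA2, an accessory subunit, gave 1238, 1225 and 1442 against 1566, 1781 and 1822 without UV and 1621, 1625 and 1981 against 2590, 2581 and 3097 after UV, with differences of 0.41 and 0.66 (standard error 0.12 in each, adjusted p = 0.0210 and 0.000805). NDUFS4, an accessory subunit of the NADH-oxidizing arm, gave 531.1, 569.8 and 522.2 against 695.7, 773.3 and 640.1 and then 735.2, 754.0 and 752.0 against 1017, 1056 and 1083. Its groups did not overlap, and the differences were 0.375 and 0.49 (adjusted p = 0.0163 and 0.00268). UQCR11 was higher by 0.36 and 0.54. The other probe sets of NDUFA2 and UQCR11 that were tested are dim and gave -0.435 and -0.37 without UV, neither of which passed, and the 3 calls without UV were each lost with a common median and when single mock arrays were left out. COX5B and ATP5IF1, the inhibitor of ATP hydrolysis by complex V, were higher after UV (0.40 and 0.435), and with the block without UV too (adjusted p = 0.00476 and 0.0151).

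**Figure D4:**
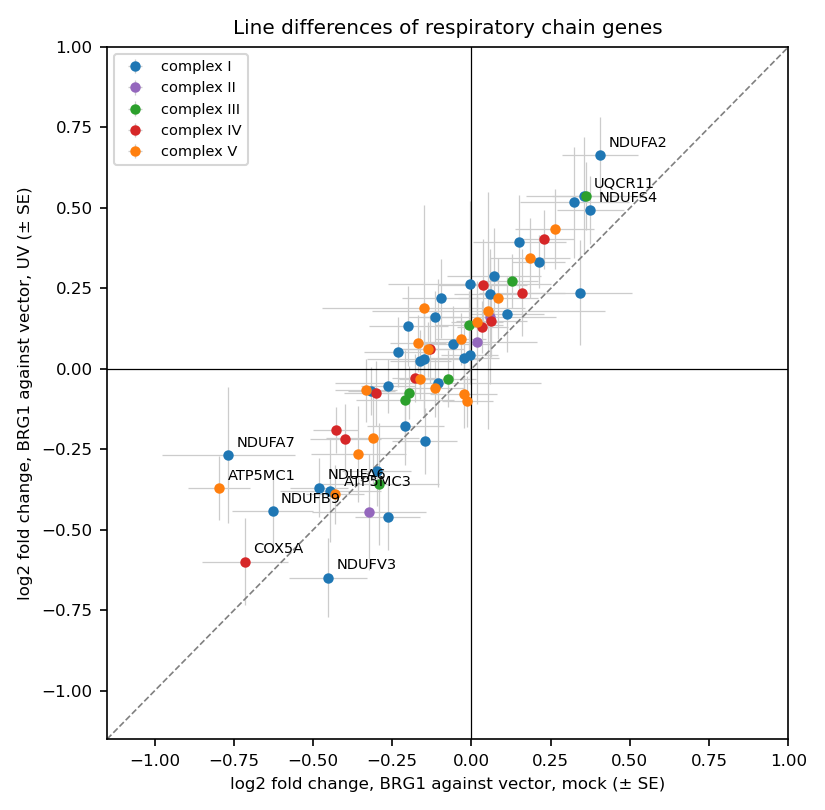
Log2 fold change between arrays labelled SW13+BRG1 and SW13+vector, without UV (horizontal) and after UV (vertical), for the 71 tested respiratory chain genes with a mean log2 signal of at least 6, coloured by complex, with standard errors and the line of equality (dashed). COX5A, ATP5MC1 and NDUFB9 lie at the lower left and NDUFA2, NDUFS4 and UQCR11 at the upper right, at the deposited scaling and by the brightest probe set.

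The other probe sets of the members gave a second measurement of the UV difference. Of these, 59 were tested, for 36 genes, and with p values adjusted over all tested probe sets 11 rose in the vector line and 15 in the BRG1 line and 0 fell. Of all 32622 tested probe sets 3.42% rose and 6.06% fell in the vector line, and 5.02% rose and 8.95% fell in the BRG1 line. With the block 19 and 23 rose and 1 and 0 fell, against 9.25% and 10.1% of all tested probe sets risen and 10.7% and 14% fallen. The 26 with a mean log2 signal of at least 8 had medians of 0.39 and 0.46, close to the chosen probe sets, and the 33 dimmer ones had 0.22 and -0.03. Each shares its arrays with the chosen probe set, so this is no independent replication.

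Subunits, electron carriers and related genes that the choice of symbols left out were counted as a list of their own. Of 10 tested (cytochrome c, the COX4 forms, NDUFAB1, HIGD and electron transfer flavoprotein genes among them) 4 and 7 rose after UV and 0 fell, with medians of 0.32 and 0.52 (7 and 8 rose with the block). CYCS, the cytochrome c that links complexes III and IV, rose from signals of 5694 ± 137 to 7896 ± 330 in the vector line and from 3726 ± 161 to 5876 ± 245 in the BRG1 line, and was lower with the BRG1 label in both treatments (-0.61 and -0.43, adjusted p = 3.81e-05 and 0.000619). COX4I1 rose by 0.32 and 0.49, and COX4I2, the form known from lung, did not pass in any comparison. ETFB, which feeds electrons from fatty acid oxidation into the chain, was higher with the BRG1 label, by 0.97 without UV and by 1.19 after UV, over 2-fold in the second.

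Mitochondrial DNA encodes the remaining core subunits, and 7 of 13 were measured. Their median UV differences were 0.31 and 0.36, and 0 and 3 of them, ND4, COX1 and ATP6, rose, while at an unadjusted p under 0.05 5 did in the first line and with the block 6 and 7 rose. COX1, the catalytic subunit of complex IV, gave 15510 ± 1491 and 19190 ± 1537 in the vector line and 15250 ± 1910 and 19520 ± 1085 in the BRG1 line, mock first. The median in the BRG1 line turned to -0.06 with quantile normalization, to -0.03 with the hybridization controls and to -0.09 with the ribosomal protein genes, and in the vector line it was 0.01, 0.05 and 0.00. Between the lines 0 of 7 passed in either treatment.

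Assembly factors, which build the complexes and are not part of them, had 5 and 16 of 48 tested genes risen and 0 and 2 fallen after UV, with medians of 0.24 and 0.24 that turned to -0.02 and -0.15 with the hybridization controls. With the block 16 and 19 rose and 1 and 3 fell. NDUFAF4, needed to assemble complex I, was lower with the BRG1 label, at 1350 ± 99.5 against 478 ± 75.5 without UV and 1646 ± 229 against 557 ± 41.2 after UV (log2 fold changes -1.51 and -1.56, adjusted p = 3.58e-06 and 2.73e-06). SDHAF3 and COA1, factors for complexes II and IV, were over 2-fold lower after UV (-1.10 and -1.04), though the difference of COA1 changed sign by the mean over its probe sets and without those of the suffixes x and s. That of SDHAF3 was lost without UV array 1 of the vector line, without UV array 3 of the BRG1 line and under the adjusted Welch test, which NDUFAF4 after UV did not pass either. COX19, a factor for complex IV, rose in the vector line by 1.785 on signals of 25.8 ± 13.3 to 82.0 ± 4.63, which the adjusted Welch test did not pass.

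Among regulators of mitochondrial biogenesis more genes fell than rose after UV. Of 14 tested, 0 and 1 (0% and 7.14%) rose and 3 and 5 (21.4% and 35.7%) fell. All tested genes fell more often than they rose too, at 8.48% against 5.56% and 11.8% against 8.03%. The medians were -0.26 and -0.36, below 0 under each of the 4 other scalings. At a mean log2 signal of 6 to 8, other tested genes had UV medians of -0.137 and -0.151, and under 6 of 0.044 and 0.039. The part of signal level in the falls of the regulators was not tested. With the block 1 and 1 rose and 5 and 6 fell. NRF1, a factor that binds many promoters of the respiratory chain, fell from 124.7 ± 16.3 to 50.6 ± 5.599 in the vector line and from 86.4 ± 12.03 to 39.0 ± 14.0 in the BRG1 line (log2 fold changes -1.30 and -1.21, adjusted p = 0.0111 and 0.0110). PPARGC1B, a coactivator of NRF1, fell too (log2 fold changes -2.29 and -3.345), from low signals of 48.6 ± 21.7 and 40.6 ± 9.04. Falls of this size end under the array medians of 21.1 to 25.3. PPARGC1B was thus tested mainly through its mock signals, and its fall, counted above in each line, is no support for a fall of the list. TFB1M, which methylates mitochondrial ribosomal RNA, fell by 0.67 and 1.07. TFAM, which packs and transcribes mitochondrial DNA, rose in the BRG1 line (0.55, adjusted p = 0.0168) and gave 0.42 in the vector line (adjusted p = 0.0715, or 0.00769 with the block). TFAM and ESRRA were over 2-fold lower with the BRG1 label without UV (-1.12 and -1.07), and GABPB1, the partner of the ETS subunit of GABP, and TFB1M after UV (-1.14 and -1.13). GABPA did not pass in any comparison and YY1 only with the block, where it fell in the vector line (-0.35, adjusted p = 0.00196) and was higher with the BRG1 label after UV (0.28, adjusted p = 0.00427). The fall of PPARGC1B in the vector line was lost in 10 of 26 alternatives. That of NRF1 in the BRG1 line was lost with quantile normalization, with the mean over its probe sets and under the adjusted Welch test, which NRF1 in the vector line, PPARGC1B in the BRG1 line and TFB1M between the lines did not pass either. The difference of ESRRA between the lines was lost with the mean over its probe sets and under both Welch tests, adjusted or not. Without probe sets of the suffixes x and s those of TFAM and TFB1M between the lines, and the fall of TFB1M in the BRG1 line, were lost.

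Genes of other large protein complexes rose after UV as well. Of 75 mitochondrial ribosomal protein genes 23 and 33 rose, 0 and 2 fell, and the medians were 0.33 and 0.34. Of 57 cytosolic ribosomal protein genes 25 and 51 rose and 0 fell, with medians of 0.33 and 0.46, and of 33 proteasome genes 15 and 20 rose and 0 fell, with medians of 0.35 and 0.44. Of all tested genes 5.56% and 8.03% rose and 8.48% and 11.8% fell. With the block 42 and 47, 53 and 53, and 23 and 24 genes of these lists rose, and 2 and 4, 0 and 0, and 1 and 0 fell. Of all tested genes 13.6% and 15.4% rose with it, and 14.1% and 16.9% fell. With quantile normalization the medians were 0.21 and 0.22 for mitochondrial ribosomal proteins, 0.03 and 0.03 for cytosolic ones and 0.09 and 0.12 for the proteasome, beside 0.18 and 0.225 for the respiratory chain, and with the hybridization controls the mitochondrial ribosomal median of the BRG1 line was -0.05. Between the lines, mitochondrial ribosomal protein genes were more often lower than higher with the BRG1 label (17 against 1 without UV, 19 against 3 after UV, and with the block 34 against 2 and 29 against 4), and MRPS30, MRPS28 and MRPS18B were over 2-fold lower without UV (-1.35, -1.10 and -1.06). Import channel genes, 21 tested, gave 8 lower and 0 higher, and 9 and 0, with TOMM40 lower by 1.06 on the log2 scale without UV, which passed neither Welch test. Beside both lists, 13.2% of all tested genes were lower and 15.3% higher without UV, and 15.5% and 16.4% after UV. With the block these shares were 19.6% and 20.9%, and 21.9% and 22.2%. No test of these lists against the respiratory chain genes was made.

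**Figure D5:**
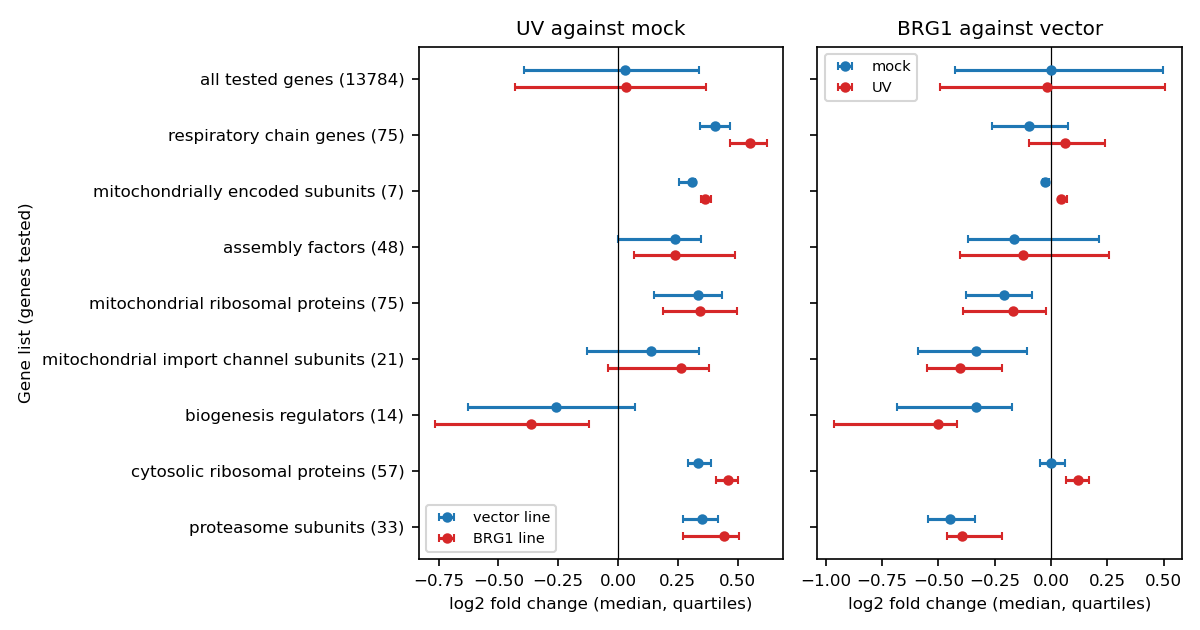
Median and quartiles of the log2 fold changes of gene lists, UV against mock (left, blue SW13+vector and red SW13+BRG1) and arrays labelled SW13+BRG1 against SW13+vector (right, blue mock and red UV), at the deposited scaling, with the number of tested genes in parentheses. The respiratory chain, ribosome and proteasome lists lie above 0 on the left, the biogenesis regulators below it, and on the right the respiratory chain lies near 0; under other scalings the left medians of the mitochondrially encoded, assembly, import, mitochondrial ribosome and proteasome lists can fall below 0.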

How the data were processed

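Total RNA of 12 samples was measured on Affymetrix U133 Plus 2.0 arrays. The deposited values are signal intensities on a linear scale, which the authors obtained with MAS at default settings and scaled to a mean target intensity of 125, and the trimmed mean of each array is 125 with 2% left out at each end. No source used here gives the MAS version. Arrays have no read depth, and the number of arrays limits the precision.

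Of 54675 probe sets 41097 have 1 gene in the platform annotation, 1801 several and 11777 none, and only the first kind was named. The gene identifiers of 41043 of these matched the RefSeq gene table, from which symbols were taken. The 62 control probe sets were left out. Probe sets at or above the array median on at least 3 of 12 arrays (32622) were taken to log2, and the brightest probe set of each gene was fitted with limma 3.58.1 (R 4.3.3) over all 4 groups, with an intensity trend in the variance prior and Benjamini-Hochberg adjustment over 13784 genes. Comparisons were UV against mock in each line, BRG1 against vector in each treatment, and the difference of the UV effects. A call needed an adjusted p under 0.05 and a fold over 2, and counts at any fold, the scaling to ribosomal protein genes and the fit without the 4 arrays numbered 3 were added after seeing the data. The other alternatives were scaling, an added signal of 16, the filter, the choice of probe set, a replicate block, the samples fitted, the prior, the Welch test of the methods and leaving out each array. The labels give the arrays of each group an experiment number from 1 to 3, by which samples pair across groups. Deviations of same-numbered arrays from their group means correlated at 0.055 to 0.278, over 0.1 in 9 of 18 pairs and at 0.204 or more in the 6 pairs of experiment 3. The fit without the block was kept as first set. The fit was tested on simulated data. Motifs and figures used Python 3.11.15.

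The members and gene lists were chosen with earlier results of these data known. Genes are named by a rule: members called, the brightest and most changed of each complex, core subunits, tissue forms, up to 4 called genes of each other list, and SMARCA4. Other genes of the text were chosen after their values were seen. Core genes for which no probe set met the rule were not analysed here.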

Additional observations from a re-analysis of the deposited data

How the results depend on the processing

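Counts are of members, in the order BRG1 against vector without UV, the same after UV, UV against mock in the vector line and UV against mock in the BRG1 line. Dropping the limit of 2-fold gave 16, 17, 37 and 60 calls in place of 0, and the counts that follow have no such limit unless 2-fold is named.

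With quantile normalization 8 were higher in the first comparison, 6 in the third and 12 in the fourth, 1 (NDUFA7) passed 2-fold in the fourth, and the medians were -0.013, 0.184 and 0.225, with 0.035 for the difference of the UV effects. With a common median 0 were higher in the first, 4 higher and 5 lower in the second and 13 higher in the third. With the hybridization controls 2 were higher in the second, whose median was -0.086, and 1 in each UV comparison, with medians of 0.146 and 0.16, and 0.004 for the difference. With the ribosomal protein genes 5 were higher in the first, 15 lower in the second (median -0.052) and 1 and 3 higher after UV (0.097 and 0.102), with -0.006 for the difference.

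Averaging all probe sets of each gene gave 2 calls at 2-fold in each comparison of the lines (COX5A in both, NDUFC1 without UV, ATP5F1E after UV) and 1 higher in the first. Without probe sets of the suffixes x and s, 1 gene (COX5A) passed 2-fold in each, 1 was higher and 8 lower in the first, 4 were higher in the second (median -0.034), and 22 and 32 rose after UV. With no trend in the prior 0 were higher and 7 lower, 3 higher and 4 lower, and 9 and 35 rose. The adjusted Welch test gave 0 higher and 4 lower, 2 and 3, 0 and 14, and the unadjusted one 5 higher in the first and 1 (COX8C) past 2-fold in the fourth. COX8C reached the array median only on UV arrays.

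With the replicate block 10 were higher and 28 lower in the first, 19 and 15 in the second, and 66 and 69 rose after UV. The block added calls, and 0 calls of members or of genes in the other lists were lost with it. Without the 4 arrays numbered 3 these were 11 and 24, 19 and 17, and 66 and 68.

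Leaving out 1 array at a time gave 0 to 7 higher and 7 to 15 lower in the first, 5 to 11 and 6 to 11 in the second, 25 to 51 risen in the third and 42 to 62 in the fourth, where 0 to 1 (NDUFA7) passed 2-fold. The medians ran from -0.131 to -0.054, 0.02 to 0.109, 0.357 to 0.467 and 0.51 to 0.59, and for the difference of the UV effects from 0.085 to 0.203. Of the members risen, 24 of 37 and 42 of 60 passed each time, and between the lines 7 of 13 lower and 0 of 3 higher without UV, and 6 of 8 and 5 of 9 after UV.

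The sign changed for SDHA after UV in the BRG1 line (-0.03 with quantile normalization, -0.331 with the hybridization controls, -0.389 with the ribosomal protein genes, and -0.054 and -0.055 without mock array 2 or UV array 3) and in the vector line (0.163, 0.085 and 0.049 without mock array 3, UV array 1 or UV array 2, in a range from -0.151 to 0.163 over single arrays, and 0.018 without the arrays numbered 3). Without UV, NDUFA2 turned to -0.015 and UQCR11 to -0.002 by the mean over probe sets, and to -0.435 and -0.366 without the suffixes x and s, where NDUFV3 after UV was 0.621. The cause was not tested. With 3 arrays a group, a p that missed the threshold does not show that a gene did not change, and signals near the array median carry little information.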

Other observations

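Proteasome genes differed between the lines, mostly towards lower signals with the BRG1 label. Of 33 tested, 23 were lower and 3 higher on the arrays labelled SW13+BRG1 without UV, where 13.2% of all tested genes were lower and 15.3% higher, and 20 were lower and 3 higher after UV, where 15.5% were lower and 16.4% higher. PSMB5, a catalytic subunit of the constitutive proteasome, was lower, at 2165 ± 134 against 1559 ± 73.7 without UV (mean signal ± SD over 3 arrays). PSMB8 and PSMB9, which replace constitutive subunits in the immunoproteasome, were higher: PSMB9 gave 104 ± 25.1 against 490 ± 56.2 without UV and 132.5 ± 8.89 against 673 ± 90.2 after UV. Without UV, PSMB8 was near background in the vector line, at 1.19 ± 0.231, and gave 120 ± 8.95 in the BRG1 line. It therefore entered the test only through its signals in the BRG1 line. Its difference, counted among the 3 higher genes in each treatment, is no support for a higher proteasome signal.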
